A study of Mus musculus with 12 samples.

Results

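The cadherin superfamily was examined in subcutaneous allograft tumors of mTc11 cells, a mouse lung cancer line. Members were the genes whose symbols begin with Cdh and a number, Pcdh, *Fat1* to *Fat4*, *Celsr1* to *Celsr3*, *Dchs1* or *Dchs2*. In the gene annotation 102 genes carry such a symbol, and 65 of them were among the 15687 genes with values; the other 37 were not analysed here. The 65 were 36 clustered protocadherins, described apart, and 29 cadherins outside the clusters. Each group had 6 tumors. The CTL tumors (genotype WT in the labels) grew from mTc11 cells carrying a lentiviral scrambled shRNA, and the *Filip1l*-knockdown tumors (genotype Filip1l KD) from mTc11 cells carrying a lentiviral shRNA against *Filip1l*. In both groups the cells were puromycin-selected mixed clones, the cells were injected in Matrigel under the skin of 8-week-old male C57BL6/J mice, and tumors were taken on day 24. The hosts were immunocompetent, and each tumor was sequenced whole, so the RNA could come from cancer cells and from vessels, fibroblasts, leukocytes and adjoining muscle. In such bulk samples fewer cells of a type and less RNA per cell cannot be told apart.

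Cadherins are calcium-dependent adhesion proteins with repeated extracellular cadherin domains. Classical cadherins bind their like on the neighbouring cell and hold the actin cytoskeleton through beta-catenin, p120-catenin and alpha-catenin. E-cadherin (*Cdh1*) and N-cadherin (*Cdh2*) mark epithelial and mesenchymal or neural adhesion, and carcinomas often shift between them. Protocadherins lack the catenin-binding tail. The clustered ones lie in alpha, beta and gamma arrays in which each gene has its own promoter, and the alpha and gamma genes splice a variable first exon to shared constant exons. Fat and Dachsous cadherins are giant proteins that signal to growth and tissue polarity, and Celsr cadherins are the transmembrane core of planar cell polarity.

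Among the called members were 3 delta protocadherins, *Pcdh10*, *Pcdh17* and *Pcdh19*, single-copy relatives of the clustered genes that are best known from the nervous system. Their promoters are shown because these genes stand apart from the shared-exon problem of the clusters and went in different directions, *Pcdh10* and *Pcdh19* lower and *Pcdh17* higher in *Filip1l*-knockdown tumors. Each line gives the 250 bases before the RefSeq start on GRCm38.p6, 5′ to 3′ on the gene's strand: chr3:45378148-45378397 (+) for *Pcdh10*, chr14:84443313-84443562 (+) for *Pcdh17* and chrX:133688994-133689243 (-) for *Pcdh19*. Capitals mark a GC box, GGGCGG or its reverse complement CCGCCC.
Pcdh10: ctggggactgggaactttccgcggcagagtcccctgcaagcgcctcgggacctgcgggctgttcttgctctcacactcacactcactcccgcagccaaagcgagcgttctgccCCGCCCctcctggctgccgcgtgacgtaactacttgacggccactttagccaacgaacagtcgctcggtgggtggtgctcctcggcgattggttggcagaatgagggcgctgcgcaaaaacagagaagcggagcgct
Pcdh17: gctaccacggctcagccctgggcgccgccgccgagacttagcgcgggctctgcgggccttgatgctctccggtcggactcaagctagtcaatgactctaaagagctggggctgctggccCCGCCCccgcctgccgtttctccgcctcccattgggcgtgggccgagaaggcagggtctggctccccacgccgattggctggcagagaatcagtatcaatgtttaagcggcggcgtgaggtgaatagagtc
Pcdh19: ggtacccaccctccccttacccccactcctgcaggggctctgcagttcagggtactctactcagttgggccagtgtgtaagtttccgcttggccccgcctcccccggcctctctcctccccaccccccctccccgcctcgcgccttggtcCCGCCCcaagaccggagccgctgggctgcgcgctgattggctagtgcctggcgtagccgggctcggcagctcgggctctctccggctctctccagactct
Each of the 3 windows held 1 GC box, a motif found in 32.7% of 32851 promoter windows of that length. They held 22, 21 and 16 CG dinucleotides, in that order, against a median of 6 over all windows. Such counts were not particular to called members. The uncalled *Pcdh18*, *Pcdh9* and *Pcdh7* held 23, 18 and 7, and the called *Cdh9* and *Cdh10* held 6 and 2. An E box, CAGGTG or CACCTG, the motif through which *Cdh1* repressors bind, was in none of the 3 and in 17.2% of all windows. Such matches are a description of the letters in these windows.

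Reads assigned to listed genes ranged from 17834745 to 29502069 in CTL tumors and from 25460564 to 32419578 in knockdown tumors. Values are given as normalized counts, which compare tumors for 1 gene. *Filip1l* itself ranged from 1983 to 2542 in CTL tumors (median 2354) and from 1670 to 2184 in knockdown tumors (median 1935). All 6 knockdown tumors lay below the CTL median, the groups overlapped, and the log2 fold change was -0.26 (SE 0.073, adjusted p = 0.00998). *Filip1l*-knockdown replicate 1 stood apart in cell type markers. Its summed fibroblast markers (263405) exceeded the 80380 to 172808 of the other 5 knockdown tumors, its leukocyte markers (8821) exceeded their 4099 to 5765, and its simple epithelium markers (174823) fell short of their 242067 to 340455. Of markers of lung epithelium, the labelled origin of the cells, 5 of 8 had values, and *Sftpa1*, *Scgb1a1* and *Scgb3a2* were not analysed here. *Nkx2-1* reached at most 37.3 in CTL and 90.6 in knockdown tumors. *Sftpb* had a mean of 29.7 in CTL and 304 in knockdown tumors (log2 fold change 2.80, limma adjusted p = 0.0463). The intestinal markers *Hnf4a* and *Lgals4* were abundant in every tumor. Others of that list were lower: *Cdx2* had means of 259 in CTL and 1155 in knockdown tumors, and *Fabp2* of 3.55 and 23.3. The median gene of chromosome 14 changed by 0.38 and that of chromosome 8 by -0.20 in knockdown tumors, on the log2 scale.

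A gene was called when its adjusted p, from the limma fit over all genes, was under 0.05 and its absolute log2 fold change (*Filip1l*-knockdown minus CTL, on log2 of normalized count plus 1) was over 1. Of the 65 members, 3 were called higher, 15 lower and 47 neither. Over all genes 6.2% were called higher and 3.97% lower, against 23.1% of members lower. By adjusted p alone 7 members were higher and 28 (43.1%) lower, where the shares over all genes were 21.1% and 20.7%. In 3 members every knockdown tumor lay above every CTL tumor and in 17 every one lay below, against 10.6% and 10.9% of all genes. The median log2 fold change was -0.65 over the members and 0.01 over all genes. Of the 18 called members, 15 had groups that did not overlap. For such genes the exact two-sided permutation test of the group labels must give its smallest p, 0.00216 here. That p therefore restates the lack of overlap and is no further evidence. The call held for 11 of the 18 (1 higher, 10 lower) in each of 11 other ways of processing the values (1 of which, a filter at a mean of 5, removed no gene) and in each of 12 fits that left out 1 tumor. Without *Filip1l*-knockdown replicate 1, 2 members were called higher and 17 lower.

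**Figure D1:**
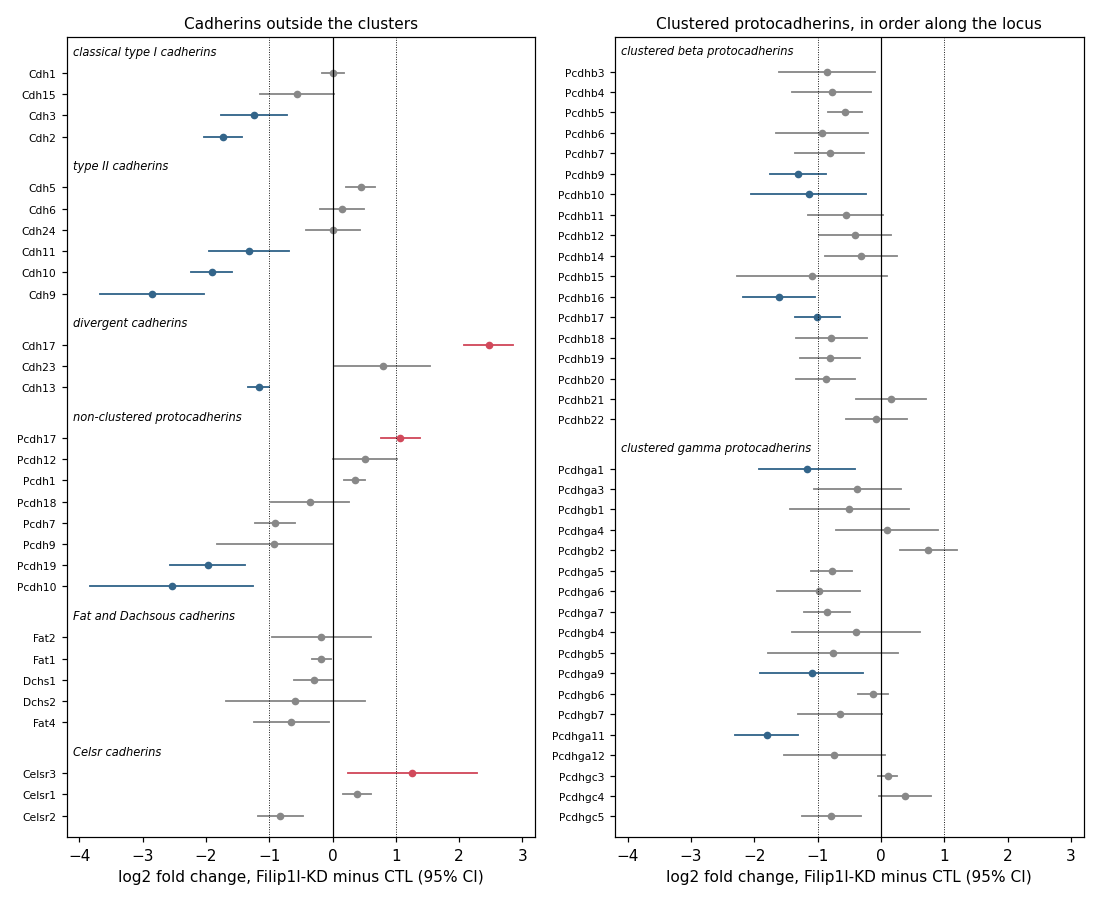
Log2 fold change (Filip1l-KD minus CTL, 6 tumors each) of all 65 members on the horizontal axis, with points for the estimate and lines for the 95% confidence interval from limma; red marks members called higher, blue those called lower and grey the rest, and dotted lines stand at -1 and 1. Of 29 genes outside the clusters 18 lie to the left of 0, with 3 called higher and 8 called lower. Of 36 clustered protocadherins 31 lie to the left of 0, with none called higher and 7 called lower.

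Among the cadherins outside the clusters 3 of 29 were called higher, *Cdh17*, *Pcdh17* and *Celsr3*, and 8 lower, *Cdh2*, *Cdh3*, *Cdh9*, *Cdh10*, *Cdh11*, *Cdh13*, *Pcdh10* and *Pcdh19*. Their median log2 fold change was -0.36. E-cadherin did not pass the test, whereas N-cadherin and P-cadherin fell and the liver-intestine cadherin *Cdh17* rose.

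Of the 5 classical type I cadherins 4 were analysed, and 2 were called lower. E-cadherin (*Cdh1*, ENSMUSG00000000303), the adhesion molecule of adherens junctions in epithelia, ranged from 25842 to 32745 normalized counts in CTL tumors (median 27871) and from 23659 to 31490 in knockdown tumors (median 29613). The groups overlapped, with knockdown replicate 1 below and CTL replicate 3 above the range of the other group. Its log2 fold change was 0.01 (95% confidence interval -0.17 to 0.19, adjusted p = 0.95), so a change of 2-fold in either direction lies outside the interval. N-cadherin (*Cdh2*, ENSMUSG00000024304; chromosome 18, 16588877 to 16809246), typical of neural and mesenchymal cells, ranged from 1538 to 2521 in CTL tumors (median 2191) and from 484 to 793 in knockdown tumors (median 636). Every knockdown tumor was below every CTL tumor, and the log2 fold change was -1.73 (SE 0.14, adjusted p = 6.05e-07), or 3.32-fold lower. P-cadherin (*Cdh3*, ENSMUSG00000061048; chromosome 8, 106510891 to 106557297), the neighbour of *Cdh1* in the genome and a cadherin of basal epithelium, ranged from 139.6 to 199.8 in CTL tumors (median 147) and from 38.9 to 132 in knockdown tumors (median 59.1). The groups did not overlap, although CTL replicate 2 stood high and knockdown replicate 1 was the highest of its group. The log2 fold change was -1.24 (SE 0.24, adjusted p = 0.000934), and it was -1.44 without knockdown replicate 1. *Cdh1* and *Cdh3* share chromosome 8, whose median gene changed by -0.20; with that shift removed *Cdh1* was at 0.21 (adjusted p = 0.0277, short of a 2-fold change) and *Cdh3* kept its call. M-cadherin (*Cdh15*), which joins muscle satellite cells and myoblasts, ranged from 101 to 247 in CTL tumors (median 153) and from 55.9 to 197 in knockdown tumors (median 108), with overlapping groups and an adjusted p of 0.119. On leaving out 1 tumor that p ranged from 0.0322 to 0.256. It too lies on chromosome 8, and with the shift removed its log2 fold change was -0.36 (adjusted p = 0.347).

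In the type II class 6 of 13 genes were analysed, and 3 were called lower. *Cdh9* (ENSMUSG00000025370; chromosome 15, 16728756 to 16857094), a cadherin of synapses, had 23.9 to 55.0 normalized counts in CTL tumors (median 32.5) and 1.75 to 10.1 in knockdown tumors (median 3.69). In 2 knockdown tumors 3 reads or fewer were counted, and no tumor of one group reached the range of the other. The log2 fold change of -2.86 (SE 0.38, adjusted p = 4.15e-05) had the largest size of any member in the main fit. Over the other ways of processing it ranged from -3.03 to -1.81, and that of *Cdh17* from 2.41 to 2.46. The rank of this scarce gene therefore depends on the processing. *Cdh10* (ENSMUSG00000022321; chromosome 15, 18818947 to 19014236), a close relative of *Cdh9* in the same region, ranged from 375 to 538 in CTL tumors (median 512) and from 87.5 to 162 in knockdown tumors (median 133). Its groups were likewise separate, with a log2 fold change of -1.91 (SE 0.15, adjusted p = 4.9e-07). OB-cadherin (*Cdh11*, ENSMUSG00000031673; chromosome 8, 102632095 to 102785642), a cadherin of osteoblasts and fibroblasts, ranged from 1556 to 3638 in CTL tumors (median 2382) and from 583 to 2334 in knockdown tumors (median 941). Knockdown replicate 1 was the tumor at 2334, inside the CTL range, and the other 5 reached at most 1147, so the groups overlapped through that tumor. The log2 fold change was -1.32 (SE 0.29, adjusted p = 0.00252) with all tumors, -1.57 without that replicate and -1.12 (adjusted p = 0.00831) with the chromosome 8 shift removed.

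VE-cadherin (*Cdh5*), the adherens junction cadherin of endothelium, went the other way. It ranged from 665 to 798 in CTL tumors (median 782) and from 768 to 1279 in knockdown tumors (median 1084). One knockdown tumor lay within the CTL range. The log2 fold change was 0.45 (SE 0.11, adjusted p = 0.00413), past the p threshold and short of a 2-fold change. With the median shift of its chromosome 8 removed it was 0.65 (adjusted p = 0.000646). The 2 remaining type II genes, *Cdh6* and *Cdh24*, singled out here only to complete the class, had log2 fold changes of 0.15 and 0.00 and did not pass. *Cdh24* lies on chromosome 14, and with that chromosome's median shift removed it was at -0.38.

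The divergent cadherins gave the strongest rise and a firm fall. *Cdh17* (ENSMUSG00000028217; chromosome 4, 11758147 to 11817895), a cadherin with a short cytoplasmic tail that is normally made by intestinal epithelium, ranged from 2811 to 7256 normalized counts in CTL tumors (median 4220). In knockdown tumors it ranged from 17184 to 27096 (median 24702). Each knockdown tumor held more than any CTL tumor, and replicate 1 was the lowest of the knockdown group. The log2 fold change was 2.46 (SE 0.18, adjusted p = 2.31e-07), or 5.52-fold higher, and 2.56 without replicate 1. *Cdh13* (ENSMUSG00000031841; chromosome 8, 118283733 to 119324921), or T-cadherin, which is held in the membrane by a lipid anchor and has no cytoplasmic tail, ranged from 6278 to 7855 in CTL tumors (median 7239) and from 2863 to 3710 in knockdown tumors (median 3087). The groups were far apart and the spread within each was narrow. Its log2 fold change was -1.17 (SE 0.077, adjusted p = 9.86e-08). Once the median shift of chromosome 8 was removed it was -0.97, with adjusted p = 1.33e-07, which is under the 2-fold line. The third analysed gene of the class, *Cdh23*, named to complete it, had a log2 fold change of 0.79 and did not pass (adjusted p = 0.0885).

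**Figure D2:**
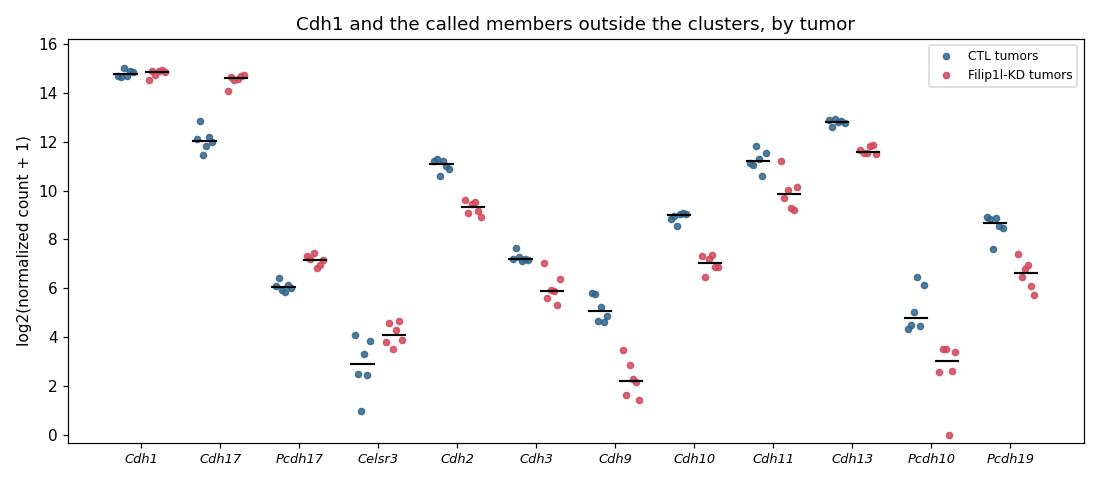
Log2 of normalized count plus 1 in each tumor (points; black bars are medians; 6 CTL tumors in blue, 6 Filip1l-KD tumors in red) for *Cdh1* and the 11 called members outside the clusters. *Cdh1* overlaps between groups, and the groups are separate for all 11 except *Celsr3* and *Cdh11*.

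Of 12 non-clustered protocadherins 8 were analysed, with 1 called higher and 2 lower. *Pcdh10* (ENSMUSG00000049100; chromosome 3, 45378398 to 45435623), whose promoter is shown above, had 19.0 to 86.7 normalized counts in CTL tumors (median 26.9) and 0 to 10.4 in knockdown tumors (median 7.398). One knockdown tumor had no read of it, and all 6 lay below the CTL range. The log2 fold change was -2.54 (SE 0.60, adjusted p = 0.00355), with a wide interval from -3.82 to -1.26 at these low counts. *Pcdh19* (ENSMUSG00000051323; chromosome X, 133582860 to 133688987), a partner of N-cadherin in adhesion, ranged from 194 to 476 in CTL tumors (median 413) and from 52.4 to 166 in knockdown tumors (median 98.5). It too was separate between groups, with a log2 fold change of -1.97 (SE 0.28, adjusted p = 6.33e-05). *Pcdh17* (ENSMUSG00000035566; chromosome 14, 84443563 to 84539002) was the only called member of the class that was higher: 56.8 to 85.2 in CTL tumors (median 65.7) and 114 to 174 in knockdown tumors (median 143). The groups did not overlap. Its log2 fold change was 1.07 (SE 0.14, adjusted p = 4.06e-05), on a chromosome whose median gene changed by 0.38. After that shift was removed the log2 fold change was 0.69 (adjusted p = 0.00175).

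The 2 members of the class with the highest level per kb were not called. *Pcdh1*, a protocadherin of airway epithelium, ranged from 2234 to 3055 in CTL tumors (median 2791) and from 3078 to 3841 in knockdown tumors (median 3438). Although no tumor overlapped, the log2 fold change was only 0.35 (SE 0.079, adjusted p = 0.00254). *Pcdh7*, a delta protocadherin, ranged from 1005 to 1612 in CTL tumors (median 1557) and from 578 to 918 in knockdown tumors (median 743). Its groups were separate as well, and its log2 fold change of -0.92 (SE 0.15, adjusted p = 0.000206) fell just short of the 2-fold line. The other 3 members of the class had log2 fold changes from -0.92 to 0.51 and did not pass by adjusted p. One of them, *Pcdh9* on chromosome 14, singled out after its values were seen, was at -1.30 (adjusted p = 0.0305) once that chromosome's median shift was removed.

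None of the 5 analysed Fat and Dachsous cadherins was called by limma, edgeR or DESeq2, although all 5 estimates were negative, from -0.65 to -0.18. By p alone 2 were lower before adjustment and none after it in limma, none after it in edgeR and 2 in DESeq2. *Fat1*, the abundant one, ranged from 10441 to 12430 normalized counts in CTL tumors (median 10955) and from 8280 to 11243 in knockdown tumors (median 9947). Its groups overlapped, with a log2 fold change of -0.18 (95% confidence interval -0.33 to -0.02, adjusted p = 0.0591). It lies on chromosome 8, and with the median shift of that chromosome removed the estimate was 0.021. On leaving out 1 tumor its adjusted p ranged from 0.0240 to 0.132. *Dchs1*, a binding partner of *Fat4*, ranged from 226 to 382 in CTL tumors (median 337) and from 222 to 339 in knockdown tumors (median 244), with overlapping groups and adjusted p = 0.119. It passed the p threshold without knockdown replicate 1 (log2 fold change -0.37, adjusted p = 0.0418) and without CTL replicate 5 (-0.39, adjusted p = 0.0273).

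The 3 Celsr genes, each a planar polarity cadherin with a receptor-like membrane domain, differed in direction. *Celsr1* ranged from 2057 to 3045 normalized counts in CTL tumors (median 2797) and from 2937 to 4389 in knockdown tumors (median 3511). The ranges overlapped narrowly, and the log2 fold change was 0.39 (SE 0.10, adjusted p = 0.00734). *Celsr2* ranged from 233 to 409 in CTL tumors (median 361) and from 146 to 253 in knockdown tumors (median 194). CTL replicate 4 was low for its group and made the overlap, and the log2 fold change was -0.83 (SE 0.17, adjusted p = 0.00114). *Celsr3* (ENSMUSG00000023473; chromosome 9, 108826320 to 108852969) was scarce, with 0.972 to 16.0 in CTL tumors (median 6.85) and 10.4 to 24.2 in knockdown tumors (median 16.3). In 2 CTL tumors 3 reads or fewer were counted, and the groups overlapped. Its log2 fold change of 1.26 (SE 0.48, adjusted p = 0.0467) was called at the margin. That call was lost in 6 of the other ways of processing and on leaving out any 1 of 9 tumors (CTL replicates 2, 3, 4 and 5 and knockdown replicates 1, 2, 4, 5 and 6), with log2 fold changes from 0.89 to 1.51 and adjusted p up to 0.0938 over all 12 such fits, and the gene was too scarce for the filter at a mean of 20.

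Levels of different genes were compared as normalized count per kb of exon sequence not shared with another annotated gene. On that scale *Cdh1* was the highest member in both groups, with means of 6229 in CTL and 6270 in knockdown tumors. *Cdh17* had 998 in CTL tumors and 5335 in knockdown tumors, and was second in both groups. *Fat1* had 737 and 653, and *Cdh13* had 640 and 286. Among the clustered genes *Pcdhgc3* was highest, with 394 and 424. *Cdh2* had 263 in CTL tumors and 79.3 in knockdown tumors, and *Cdh11* had 282 and 123. At the low end stood *Celsr3*, with 0.672 and 1.43, and *Pcdh10*, with 2.64 and 0.431. The called members therefore ran from genes near the detection limit to one of the most abundant cadherins of these tumors.

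**Figure D3:**
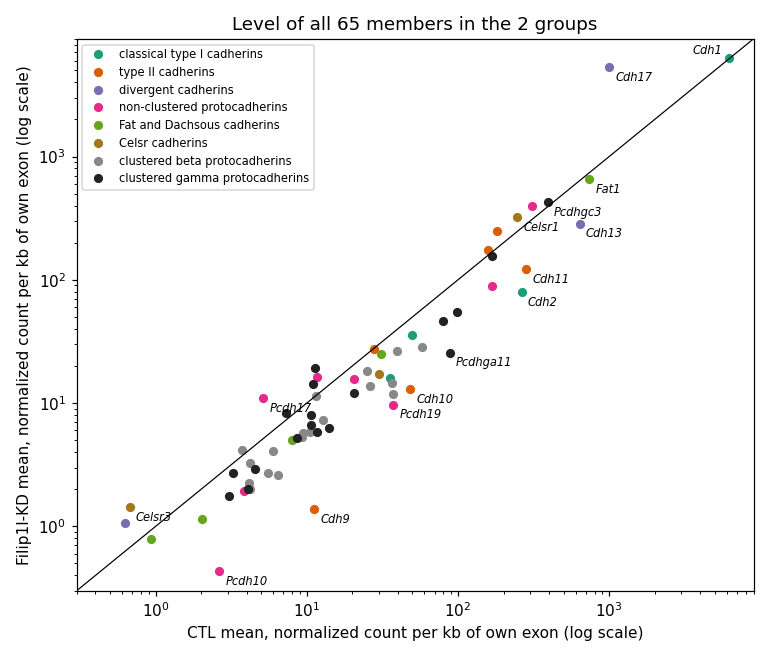
Mean normalized count per kb of own exon in CTL tumors (horizontal) and Filip1l-KD tumors (vertical), both on log scales, for all 65 members coloured by class; the line marks equal levels. *Cdh1* lies on the line at 6229 and 6270, *Cdh17* far above it, and *Cdh2*, *Cdh9*, *Cdh10*, *Pcdh10* and *Pcdh19* below it.

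The clustered protocadherins lie on chromosome 18, the beta array from 37264938 to 37524479 and the gamma array from 37661793 to 37841873 on GRCm38. Of 22 beta genes 18 were analysed, and of 22 gamma genes 18; the 14 alpha genes were not analysed here. All 18 gamma genes share exons with other members, and a median of 54.9% of the exon bases of a gamma gene were its own. Beta genes are single-exon genes with near-identical stretches among them, and 2 of the 18 share exon sequence with another member in the annotation. *Pcdhb12* overlaps exon sequence annotated outside the members, and 1.107 of its 3.034 kb of exon were its own. Reads in shared or near-identical stretches may have been assigned to another member or dropped. The values were whole reads, so no read was divided between members. Assignment to another member makes single clustered genes less certain than the array sums, and dropped reads are missing from those sums too. No clustered gene was called higher by limma, edgeR or DESeq2, and 7 of 36 (19.4%) were called lower by limma (9 by either count tool). By adjusted p alone 1 was higher and 18 were lower, and in 9 all knockdown tumors lay below all CTL tumors. The median log2 fold change was -0.78. Genes over the same range of mean level, 8639 in all, had 5.81% called lower, 17.4% lower by adjusted p and a median of 0.02.

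Summed over the analysed beta genes, normalized counts ranged from 924.2 to 1460 in CTL tumors (median 1276) and from 574 to 844 in knockdown tumors (median 674). The beta sums did not overlap between groups. The gamma sums ranged from 1958 to 2307 in CTL tumors (median 2051) and from 1509 to 2004 in knockdown tumors (median 1701). Those overlapped at the edge. The ratio of group medians was 0.528 for beta and 0.829 for gamma.

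Within the beta array 17 of 18 genes had a negative estimate, 11 passed by adjusted p, all lower, and 4 were called. *Pcdhb16* (ENSMUSG00000047910) ranged from 115 to 301 in CTL tumors (median 170) and from 45.0 to 111 in knockdown tumors (median 54.0). The groups were separate, with replicate 1 the highest knockdown tumor, and the log2 fold change was -1.62 (SE 0.27, adjusted p = 0.000239), or -1.80 without that tumor. *Pcdhb9* (ENSMUSG00000051242) ranged from 88.1 to 163 in CTL tumors (median 100.1) and from 29.2 to 59.7 in knockdown tumors (median 43.6). It was separate too, with a log2 fold change of -1.31 (SE 0.21, adjusted p = 0.000181). *Pcdhb17* (ENSMUSG00000046387), the most abundant beta gene per kb, ranged from 162 to 345 in CTL tumors (median 277) and from 110 to 159 in knockdown tumors (median 133), at a log2 fold change of -1.003 (SE 0.16, adjusted p = 0.000216). It sat at the 2-fold line: leaving out any 1 of 8 tumors (CTL replicates 1, 3, 4, 5 and 6, knockdown replicates 2, 3 and 4) took it under the line, while the log2 fold change stayed between -1.14 and -0.93. *Pcdhb10* (ENSMUSG00000045657), a scarce gene with at least 13.4 in every CTL tumor (median 15.4) and 0.873 to 10.4 in knockdown tumors (median 9.45), had a log2 fold change of -1.14 (SE 0.42, adjusted p = 0.0433). One knockdown tumor had a single read. That call also went with any 1 of 8 tumors left out (each CTL replicate, knockdown replicates 5 and 6), with log2 fold changes from -1.26 to -0.74. *Pcdhb5*, next in level per kb, ranged from 116 to 157 in CTL tumors (median 144) and from 77.7 to 112 in knockdown tumors (median 95.9). Though separate between groups, it changed by only -0.57 (SE 0.13, adjusted p = 0.00208). Only *Pcdhb21*, near the downstream end of the array and singled out after its values were seen, had a positive estimate (0.15), and it did not pass.

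In the gamma array 3 of 9 A genes were called lower, none of 6 B genes and none of 3 C genes, against 3.97% of all genes. These counts are too small to compare the types. By adjusted p alone 6 A genes, no B gene and 1 C gene were lower, against 20.7% of all genes, and 1 B gene was higher. That C gene, *Pcdhgc5*, singled out after its values were seen, had a log2 fold change of -0.79 (adjusted p = 0.00967). *Pcdhga11* (ENSMUSG00000102742) ranged from 88.5 to 136 in CTL tumors (median 108) and from 19.8 to 44.5 in knockdown tumors (median 33.2). Its groups were well separated, with the largest change of the clustered genes, -1.80 (SE 0.23, adjusted p = 2.85e-05). *Pcdhga1* (ENSMUSG00000103144) ranged from 19.9 to 55.0 in CTL tumors (median 43.5) and from 6.26 to 32.3 in knockdown tumors (median 17.7), with overlap and a log2 fold change of -1.17 (SE 0.35, adjusted p = 0.0159). Without knockdown replicate 3 it was -0.92 and no longer called. *Pcdhga9* (ENSMUSG00000102440) had 11.5 to 19.4 in CTL tumors (median 14.1) and 1.73 to 11.1 in knockdown tumors (median 7.23), with separate groups and a log2 fold change of -1.10 (SE 0.38, adjusted p = 0.0307). Its call was lost without CTL replicate 2 or 5 or knockdown replicate 4 or 5, with log2 fold changes from -1.25 to -0.82 over all such fits.

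The 2 most abundant gamma genes per kb did not pass. *Pcdhgc3*, a C-type gene that many cell types outside the nervous system express, ranged from 650 to 795 in CTL tumors (median 701) and from 682 to 820 in knockdown tumors (median 790), with a log2 fold change of 0.11 (95% confidence interval -0.04 to 0.26, adjusted p = 0.249). *Pcdhgb6* ranged from 354 to 542 in CTL tumors (median 413) and from 335 to 492 in knockdown tumors (median 387), with a log2 fold change of -0.12 (95% confidence interval -0.36 to 0.12). The groups overlapped for both genes. One clustered gene, *Pcdhgb2*, singled out after its values were seen, was higher by adjusted p alone, with a log2 fold change of 0.75 (SE 0.21, adjusted p = 0.0109).

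**Figure D4:**
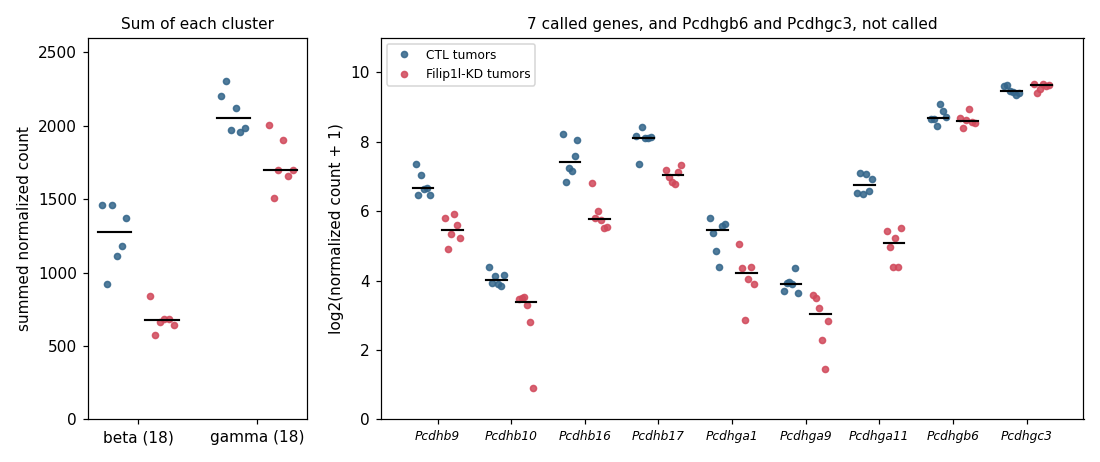
Left, summed normalized counts of the 18 analysed beta and 18 analysed gamma genes in each tumor, and right, log2 of normalized count plus 1 for 9 clustered genes (blue, 6 CTL tumors; red, 6 Filip1l-KD tumors; black bars, medians). The beta sums are separate (CTL from 924.2, knockdown up to 844), the gamma sums overlap, and *Pcdhgb6* and *Pcdhgc3* overlap while 6 of the 7 called genes are separate.

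Genes around the arrays were read as a local comparison. Of 33 other listed genes within 1 *Mb* of the arrays, none was called in either direction by limma, edgeR or DESeq2. By unadjusted p 7 were higher and 5 lower. By adjusted p alone 5 were higher and 5 lower, where the shares over all genes were 21.1% and 20.7%. The median log2 fold change of the 33 was -0.00061. *Taf7*, the single listed gene between the arrays and not a protocadherin, had a log2 fold change of -0.12 (adjusted p = 0.341). The median gene of chromosome 18 changed by -0.036. *Pcdh1* and *Pcdh12*, single-copy members just downstream, had positive estimates of 0.35 and 0.51.

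Genes that work with these proteins were examined next. Over all genes 6.2% were called higher and 3.97% lower, and by adjusted p alone 21.1% were higher and 20.7% lower. These shares stand beside each count of list and marker genes below. Of 14 analysed catenins and cytoplasmic partners of classical cadherins none was called by limma, edgeR or DESeq2; 4 were higher and 1 lower by adjusted p, and the median log2 fold change was 0.11. Of 14 genes of cadherin shedding, endocytosis and signalling, 2 were lower, both phosphatases that act at junctions: *Ptprm* fell by 1.46 (adjusted p = 6.49e-06) and *Ptpn14* by 1.12 (adjusted p = 3.25e-05) on the log2 scale, and the list's median was -0.02. In the Fat and Dachsous pathway 2 of 15 genes were lower and the median was -0.28. These were *Fjx1*, whose fly relative is a kinase for Fat and Dachsous, at -1.35 (adjusted p = 5.36e-07), and *Tead2*, a DNA-binding partner of *Yap1*, at -1.24 (adjusted p = 3.15e-06). By adjusted p alone 9 of the 15 were lower and 2 higher. Core planar polarity genes that act with Celsr had 3 of 14 lower and a median of -0.28: *Prickle1* at -1.90 (adjusted p = 1.73e-05), *Fzd6* at -1.22 (adjusted p = 4.95e-06) and *Fzd3* at -1.15 (adjusted p = 0.00136). Here 9 of 14 were lower and none higher by adjusted p.

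None of 10 analysed subunits of the WAVE actin complex, which binds protocadherin tails, was called by limma, edgeR or DESeq2. By unadjusted p 1 was higher and 1 lower (median 0.07). None of 18 chromatin regulators of the clustered protocadherins was called by any of the 3 tools, but 11 were lower by adjusted p and 1 higher, with a median of -0.20 and a lowest value of -0.77. Of the desmosomal cadherins 1 of 4 was called: *Dsg2*, the desmoglein of simple epithelia, rose by 1.66 (adjusted p = 1.4e-07). Among 7 analysed cadherin-related genes outside the symbol rule 4 rose and none was called lower by limma or edgeR, while DESeq2 called 1 lower. *Cdhr2* and *Cdhr5*, which link the tips of microvilli, rose by 4.54 (adjusted p = 4.38e-08) and 4.00 (adjusted p = 1.65e-08), and the receptor kinase *Ret* and the calsyntenin *Clstn3* by 1.93 (adjusted p = 2.55e-06) and 1.75 (adjusted p = 0.000811).

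Markers of other cell types moved beside several members. The fibroblast sum, over 9 of 9 markers, ranged from 171184 to 286192 in CTL tumors and from 80380 to 263405 in knockdown tumors; 3 markers were lower by adjusted p, none was called by limma, edgeR or DESeq2, and knockdown replicate 1 was highest of its group both in this sum and in *Cdh11*. The part of the fibroblast markers in the result for *Cdh11* was not tested. All 10 endothelial markers had values. Their sum ranged from 2740 to 3467 in CTL tumors and from 3455 to 5465 in knockdown tumors, none was called by limma, edgeR or DESeq2, and 6 of the 10 were higher by adjusted p, as was *Cdh5*. Their part in the result for *Cdh5* was not tested.

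Skeletal muscle fiber markers, all 10 listed, summed to between 2297 and 12379 in CTL tumors and between 5497 and 89418 in knockdown tumors, with 8 of 10 called higher, while *Cdh15* was not called. Of 6 satellite cell and myoblast markers 4 had values, 2 were higher (*Myod1* and *Myog*) and 1 lower (*Chrna1*), and *Pax7* and *Myf5* were not analysed here. Their sum ranged from 286 to 622 in CTL tumors (median 559) and from 176 to 597 in knockdown tumors (median 345). *Chrna1*, with means of 465 and 212, weighed most in it, against 8.77 and 64.0 for *Myog* and 1.04 and 23.1 for *Myod1*. The part of either muscle list in the values of *Cdh15* was not tested. Intestinal epithelium markers, 7 of 8 listed, summed to between 19400 and 24829 in CTL tumors and between 39106 and 90485 in knockdown tumors, with 5 called higher, and simple epithelium markers to between 111610 and 153166 and between 174823 and 340455, with 7 of 8 called higher. *Cdh17* was higher in knockdown tumors, as were both sums, with knockdown replicate 1 lowest and replicate 6 highest of the group in all 3. Within CTL tumors *Cdh17* did not follow the sums. Replicate 2 had its highest value (7256) beside an intestinal sum of 21106 and a simple epithelium sum of 119398. Replicate 3 had its lowest (2811) beside larger sums, 22271 and 141589. *Cdh1* was not called. The part of these markers in the result for *Cdh17* was not tested. Sums of pericyte and smooth muscle markers ran from 6210 to 11079 in CTL and from 6967 to 14738 in knockdown tumors (1 of 8 called higher), of skin markers from 1022 to 3938 and from 1522 to 3813 (0 of 5 called by limma, edgeR or DESeq2, and 0 at an unadjusted p under 0.05), of lung epithelium from 254 to 445 and from 378 to 1501 (1 of 5 called higher), and of leukocytes from 3296 to 4811 and from 4099 to 8821 (2 of 6 called higher).

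**Figure D5:**
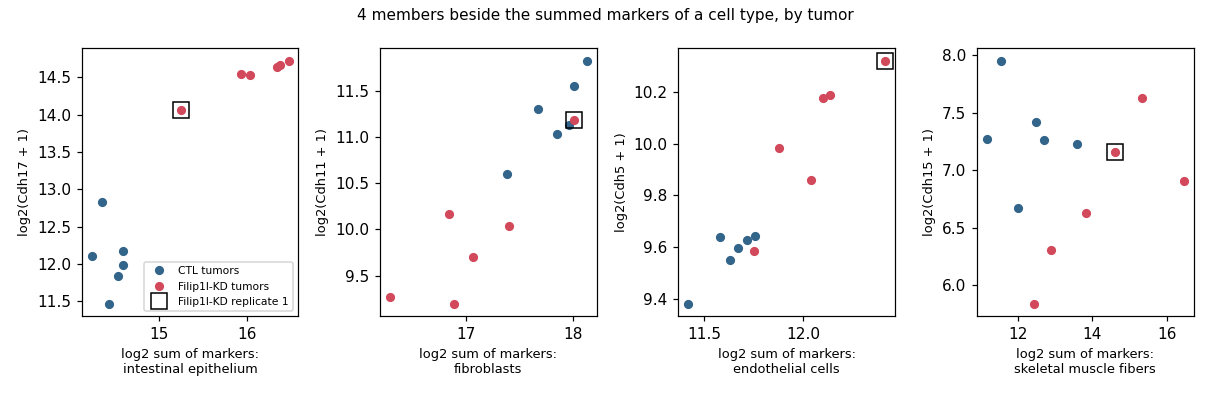
Log2 of a member's normalized count plus 1 (vertical) against log2 of the summed markers of a cell type (horizontal) in each tumor, for *Cdh17*, *Cdh11*, *Cdh5* and *Cdh15*; blue, 6 CTL tumors; red, 6 Filip1l-KD tumors; the square marks Filip1l-KD replicate 1. *Cdh11* and the fibroblast sum of that replicate lie among the CTL tumors, and its *Cdh17* and intestinal sum lie lowest of the knockdown tumors and above all CTL tumors.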

How the data were processed

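Tumor RNA was prepared with a poly(A) library kit and sequenced as 150-base read pairs. Per the submitters' processing notes and the study's methods, the authors trimmed reads (Trimmomatic 0.36), aligned them to mm10 (STAR 2.5.2b), counted genes (featureCounts, Subread 1.5.2) and divided the counts by DESeq2 size factors. The strand setting of the counting is not given in the sources used here. The deposited signal values are those normalized counts for 15687 genes, the lowest with a mean of 9.28. Identifiers were named from GENCODE vM21 (GRCm38), which held 15655 of them (99.8%).

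log2(value + 1) was fitted across all genes with limma 3.58.1 (variance trend, Benjamini-Hochberg adjustment), 6 against 6 tumors with no covariate. The study used 2 shRNA sequences against *Filip1l*, and the labels do not say which the sequenced tumors carried. The p-values measure spread between tumors grown from transduced cells, not between separately made knockdown lines. An effect of the knockdown cannot be told apart from other differences between the transduced cells of the groups. A gene was called at adjusted p under 0.05 and absolute log2 fold change over 1. Single values were also tested by exact two-sided permutation. Every tumor's values were whole multiples (within 0.02) of its smallest value, so whole reads were recovered and tested with edgeR 4.0.16 and DESeq2 1.42.0 as alternatives. The other alternatives were pseudocounts of 0.5 and 8, filters at means of 5 (which removed no gene) and 20, 2 other scalings, no variance trend, a replicate block, removal of chromosome medians (genes with a mean of at least 50) and leaving out each tumor. Scripts were tested on simulated data. Replicate numbers did not pair the tumors (correlations of deviations between -0.27 and 0.099).

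The members, gene lists and tests were chosen with earlier results of these data known. Named genes were every called member, the 2 members with the highest level per kb in each class, *Cdh1*, *Cdh2*, *Cdh5*, *Cdh15*, *Cdh17*, *Filip1l*, and up to 4 called genes with the largest change in each list of partner and related genes. Cell type markers were named outside that rule. Promoters came from RefSeq (18 members matched outside chromosome 18, 6 of them called). A further marker list is not reported here.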

Additional observations from a re-analysis of the deposited data

Results flagged for a closer look

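In 6 of the 60 sets of 6 tumors examined (30 named members in 2 groups), the highest or lowest tumor lay farther from its neighbour, relative to the group's whole range, than Dixon's 95% critical value; chance gives about 1 in 20. *Filip1l*-knockdown replicate 1 was that tumor for 3 genes: *Cdh11* at 2334 normalized counts (next highest 1147), *Pcdhb16* at 111 (next highest 63.6) and *Cdh17* at 17184 (next lowest 23595). It was also the knockdown tumor with the highest fibroblast and lowest simple epithelium marker sums, whose part was not tested. In CTL tumors, replicate 2 was high for *Cdh3* at 199.8 (next highest 155), replicate 5 low for *Cdh5* at 665 (next lowest 749) and replicate 4 low for *Celsr2* at 233 (next lowest 350.0). Leaving these tumors out changed no call of these 6 genes.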

How the results depend on the processing

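With all 12 tumors, 306 of 327 log2 fold changes of the named members under the alternatives kept their direction and their side of the call, 17 lost the call and 4 changed sign. Of 360 from fits without 1 tumor, 323 kept both, 30 lost the call, 1 gained it and 6 changed sign. The sign changes were those of 2 genes near 0. *Cdh1* became -0.0034 when rescaled to the 75th percentile, -0.033 when rescaled to the same total and -0.0028 with edgeR, and it ranged from -0.020 to 0.062 on leaving out 1 tumor. *Fat1* became 0.021 with chromosome medians removed. A pseudocount of 8, which shrinks the change of scarce genes, left 3 clustered protocadherins called lower against 7. Under the other alternatives with all 12 tumors 5 to 9 were called lower, none higher, and outside the clusters 8 were lower under each (8 or 9 on leaving out 1 tumor). A replicate block left 2 members called higher and 13 lower, losing *Celsr3*, *Pcdhb10* and *Pcdhga9*. Removing chromosome medians lost *Cdh13*, *Pcdh17*, *Pcdhb10* and *Pcdhb17* and gained *Pcdh9*. With edgeR or DESeq2 on whole reads 2 were higher and 17 lower: *Celsr3* was lost, and *Pcdhb6* and *Pcdhga6* were gained. In 11 members a tumor had 3 reads or fewer, and there depth limits the estimate.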
